A study of Mus musculus with 39 samples.

Results

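Livers of PPARα-null mice given perfluorooctanoic acid (PFOA) at 1 mg/kg were compared with livers of PPARα-null mice given water. The members are the 4 arrays titled with the null genotype and 1 mg/kg PFOA and the 4 titled with the null genotype and 0 mg/kg, which are 8 of the 39 arrays of the series. Of the 33012 probes, the 25295 with a value on every array were tested, and 11591 genes are named by at least 1 tested probe. PFOA, a fluorinated surfactant, was given as its ammonium salt in deionised water, and the controls received that water alone. All mice were adult males of the 129SV background, dosed by gavage for 7 days, and the series design gives 4 animals per group. The control mice lack PPARα as the treated ones do; the labels do not say how the null allele was made. The other groups compared below are PPARα-null mice given PFOA at 3 mg/kg and wild-type mice given PFOA at 1 mg/kg or water. Each of them has 4 arrays. The fit described below took its estimate of spread from all 39 arrays, in 10 groups. Its remaining groups are wild-type mice given PFOA at 3 mg/kg, and mice of both genotypes given pirinixic acid at 50 mg/kg or methylcellulose. The question of the series is which effects of PFOA on liver transcripts depend on PPARα.

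PPARα is a nuclear receptor that fatty acids and PFOA activate, and in the liver it turns on genes of fatty acid uptake, transport and oxidation. CAR and PXR are related receptors that sense foreign chemicals and turn on cytochrome P450 genes of the Cyp2b, Cyp2c and Cyp3a families together with enzymes that conjugate and export the products. A mouse without PPARα can therefore show which transcripts respond to PFOA by other routes.

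Values are log2 signals as deposited, so 1 unit is a 2-fold step. Errors beside group means are standard deviations (n = 4), and errors beside differences are standard errors of the limma fit. A probe passed the test when its p, adjusted by Benjamini and Hochberg's method across all tested probes, was under 0.05. The median of all tested values was 10.1, and 583 probes for genes silent in liver (keratin-associated proteins and the receptors of smell, taste and pheromones) had a median of 8.54. Among the 8 arrays the correlation across probes had a median of 0.959 for the 12 pairs of the same group and 0.961 for the 16 pairs of different groups, so the arrays did not separate by treatment over the whole table.

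Some arrays need naming before the results. The 39 arrays fell into unrecorded sets of 16 and 23, which differed by log2 3.59 over 152 probes that vary together. PFOA arrays 1 and 4 lay in the smaller set and 2 and 3 in the larger one, while water arrays 1, 3 and 4 lay in the smaller set and 2 in the larger one. The mean of the silent-gene probes was 8.77 to 8.8 on the PFOA arrays and 8.73 to 8.8 on the water arrays (exact permutation p = 0.429, two-sided; the smallest possible is 0.0286). Cox6b2, a testis-type subunit of cytochrome c oxidase, was chosen after its values were seen, as a check of genotype: it was 6.96 to 10.05 on the PFOA arrays and 8.18 to 8.96 on the water arrays, against 13.29 to 14.52 in wild-type mice on water. The array titled wild type, PFOA 1 mg/kg, replicate 3 had 9.06 against 16.38 to 16.95 on its 3 fellows. Its Ehhadh and Cd36, PPARα targets described below, were also at null levels. Wild-type and genotype results that use this array are therefore given with and without it. The array also enters the shared estimate of spread, so it bears on the errors, intervals and p of the null results. Those are given with it unless stated. Without it, the standard error of the null difference went from 0.52 to 0.24 for Ehhadh and from 0.45 to 0.37 for Cyp2c55. For Ces1g it was 0.22 in both fits. Ppara itself had 15.57, 15.73, 15.95 and 15.87 on PFOA arrays 1 to 4, against 15.34, 15.31, 15.14 and 15.04 on water arrays 1 to 4; the groups did not overlap and the difference was 0.57 ± 0.21 (adjusted p = 1). The position of its probe in the gene is unknown here, and the level of Ppara was not used as a check of genotype.

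Cyp2c55, Ces1g and Cnmd passed the test as higher in null livers given 1 mg/kg PFOA, and no probe passed as lower. Background on them is as follows: Cyp2c55 is a cytochrome P450 known as a target of CAR and PXR, Ces1g is a carboxylesterase that hydrolyses lipid and drug esters, and Cnmd is chondromodulin, known as an inhibitor of blood vessel growth in cartilage. They are 3 of the 25295 probes (0.0119%), and 0 passed as lower. At an unadjusted p under 0.05 there were 1003 probes (3.97%), of which 509 were higher (2.01%) and 494 lower (1.95%). The median difference over all tested probes was -0.00867, and 388 probes were at least 2-fold higher and 316 at least 2-fold lower. On simulated data with the same groups and each probe's spread, 69 of 100 probes changed by log2 2 were called. Of 100 changed by log2 1, 35 were called, and 5 unchanged probes were called as well. The simulated noise was independent between probes and held no array sets. The adjusted threshold also loosens as more probes are called, and the real comparison called only 3, so these rates may be too high for it.

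**Figure D1:**
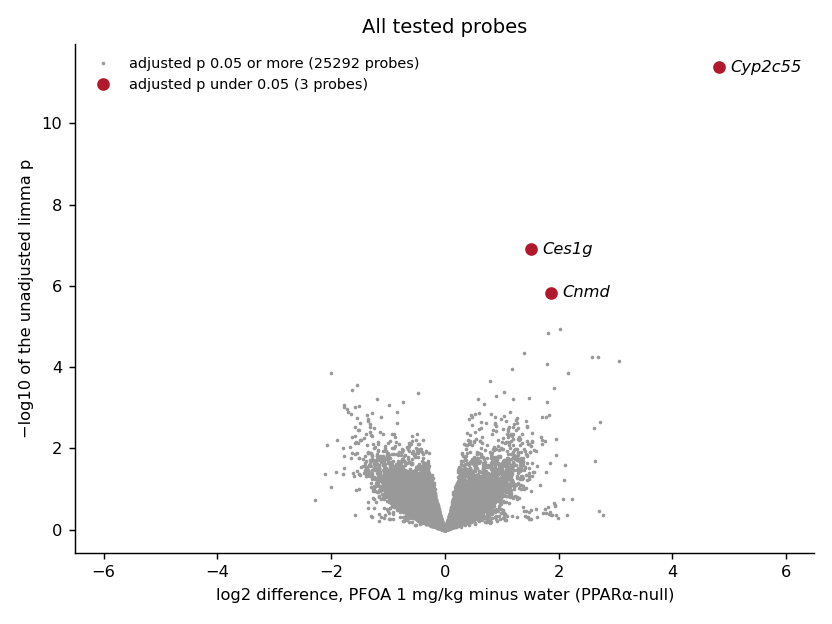
Each point is 1 of the 25295 tested probes, placed by its log2 difference between PPARα-null livers with PFOA 1 mg/kg and with water (x axis) and by the negative log10 of its unadjusted limma p (y axis). Cyp2c55, Ces1g and Cnmd, in red, are the 3 probes with an adjusted p under 0.05, and all of them lie on the side of higher signal with PFOA.

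Cyp2c55 had the smallest p of all probes. Its signal was 15.98, 15.97, 15.65 and 15.38 on PFOA arrays 1 to 4, against 11.08, 10.54, 11 and 11.04 on water arrays 1 to 4. Every PFOA array stood more than 4 log2 units above every water array. The mean was 15.75 ± 0.29 with PFOA and 10.92 ± 0.25 with water, a 28.4-fold rise (log2 4.83 ± 0.45, 95% interval 3.92 to 5.74, adjusted p = 1.05e-07). The difference was 4.64 within the smaller array set (adjusted p = 0.000291) and 5.27 within the larger one, where a single water array remained (adjusted p = 0.119).

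Ces1g had 16.09, 16.29, 16.82 and 16.34 on the PFOA arrays, against 14.49, 15.13, 14.73 and 15.10 on the water arrays. The groups did not overlap, and the rise was 2.87-fold (log2 1.52 ± 0.22, adjusted p = 0.00158). Within the smaller and larger array sets the difference was 1.44 and 1.42, and neither passed (adjusted p = 0.813 and 0.459). When only the 8 arrays of the comparison were fitted the difference was the same and the adjusted p was 0.169.

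Cnmd had 14.86, 14.63, 14.04 and 14.79 on the PFOA arrays, against 13.10, 12.62, 12.49 and 12.61 on the water arrays. All 4 PFOA arrays were higher than all 4 water arrays, and the rise was 3.67-fold (log2 1.88 ± 0.32, adjusted p = 0.0123). This call is the least stable of the 3. It was lost when any of PFOA arrays 1, 2 and 4 or water arrays 2, 3 and 4 was left out (adjusted p between 0.0532 and 0.119) and with the 8 arrays alone (adjusted p = 0.137). The difference was 2.09 within the smaller array set and 1.72 within the larger one, neither passing (adjusted p = 0.102 and 0.996).

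The stretches before the transcription starts of these 3 genes are shown because they are the genes that passed the test. They are the 250 bases ahead of the annotated start, 5′ to 3′, on the strand of the gene, from RefSeq on GRCm38.p6: chr19:39006769-39007018 on the plus strand for Cyp2c55, chr8:93337210-93337459 on the minus strand for Ces1g and chr14:79662184-79662433 on the minus strand for Cnmd. Capitals mark every match, on either strand, to AGGTCA or AGTTCA, which are half-sites of nuclear receptors, to the TATA box TATAAA, or to the D-box TTATGTAA, the motif of the clock-output factor DBP, which was searched for after the Ces1g stretch had been read.
Cyp2c55: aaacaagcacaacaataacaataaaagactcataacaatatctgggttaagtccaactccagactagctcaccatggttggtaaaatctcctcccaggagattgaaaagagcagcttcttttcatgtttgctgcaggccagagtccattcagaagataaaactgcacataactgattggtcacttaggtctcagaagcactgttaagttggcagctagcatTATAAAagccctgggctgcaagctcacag
Ces1g: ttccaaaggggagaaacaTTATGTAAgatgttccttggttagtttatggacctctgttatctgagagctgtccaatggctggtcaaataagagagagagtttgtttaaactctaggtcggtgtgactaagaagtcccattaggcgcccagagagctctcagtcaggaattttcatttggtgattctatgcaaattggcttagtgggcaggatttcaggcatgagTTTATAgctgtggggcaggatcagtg
Cnmd: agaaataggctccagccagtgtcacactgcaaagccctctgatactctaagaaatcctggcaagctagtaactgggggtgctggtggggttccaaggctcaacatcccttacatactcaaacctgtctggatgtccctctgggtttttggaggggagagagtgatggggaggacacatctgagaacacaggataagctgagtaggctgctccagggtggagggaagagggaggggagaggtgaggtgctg
TATAAA was matched in Cyp2c55 from 29 to 24 bases before the start and, on the other strand, in Ces1g from 26 to 21 bases before it. TTATGTAA was matched once, in Ces1g, from 232 to 225 bases before the start. No match overlapped another, and the Cnmd stretch held none of these letters. Over all 32851 RefSeq stretches of this length, 14.0% hold AGGTCA, 11.8% hold AGTTCA, 12.4% hold TATAAA and 0.819% hold TTATGTAA. A match describes the letters and no binding was measured.

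**Figure D2:**
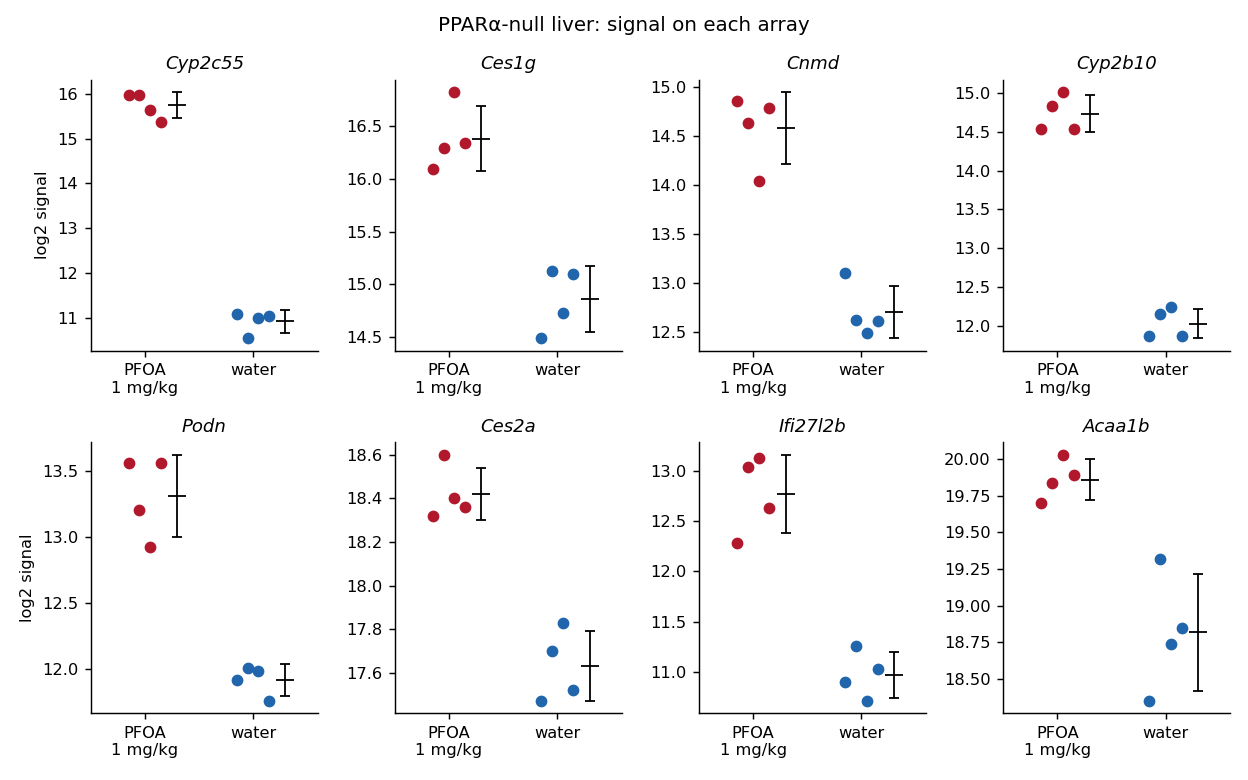
Each panel shows the log2 signal of 1 gene (y axis, scaled for each gene) on the 4 PFOA 1 mg/kg arrays and the 4 water arrays of PPARα-null mice, with replicates 1 to 4 from left to right and the mean ± SD in black. In all 8 genes the groups do not overlap; Cyp2c55, Ces1g and Cnmd passed the test and the other 5 did not.

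Beside Cyp2c55, several other genes of the CAR and PXR list were higher with PFOA. Of its 28 measured members, 1 passed the test (0.0259% of all genes did), 10 were higher and 0 lower at an unadjusted p under 0.05, where 1.92% of all genes were higher and 2.04% lower. The PFOA arrays lay above every water array for 9 of the 28, against 2.50% of all genes. The median difference of the list was 0.248, against -0.0221 over all genes, and it was 0.22 and 0.41 within the smaller and larger array sets, with 9 and 2 members higher at an unadjusted p under 0.05. Leaving out 1 of the 8 arrays moved the median between 0.20, without PFOA array 1 or water array 2, and 0.38, without PFOA array 3. The members higher at that p then numbered 7, without PFOA array 2, to 9.

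Cyp2b10, a P450 known as a target of CAR, had 14.53, 14.83, 15.01 and 14.54 on the PFOA arrays, against 11.87, 12.16, 12.24 and 11.87 on the water arrays. Its groups stood more than 2 units apart, a difference of 2.70 ± 0.58 (6.48-fold), but it did not pass over all arrays (adjusted p = 0.182). With the 8 arrays alone, where its standard error was 0.17, the same difference passed (adjusted p = 0.00312). Ces2a, a carboxylesterase of the endoplasmic reticulum, had 18.32 to 18.60 with PFOA and 17.47 to 17.83 with water, a difference of 0.79 ± 0.19 (adjusted p = 0.406).

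Other P450s of the list were also higher on every PFOA array. Cyp2c37, which oxidises arachidonic acid, averaged 16.96 ± 0.28 with PFOA and 15.60 ± 0.24 with water, a difference of 1.37 ± 0.48. Cyp2c54 averaged 19.90 ± 0.11 with PFOA and 19.22 ± 0.11 with water, a difference of 0.68 ± 0.32. Neither passed the test (adjusted p = 1). Enzymes that act beside the P450s showed the same order of arrays: Alas1, which makes the precursor of haem, differed by 1.78 ± 0.52, the sulfotransferase Sult1c2 by 0.68 ± 0.30 and the glucuronosyltransferase Ugt2b34 by 0.36 ± 0.14, none passing. Alas1 varied widely among water arrays, with 14.29 and 14.41 on arrays 1 and 3 and 16.31 and 16.11 on arrays 2 and 4.

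The receptors themselves and some well-known members of the list gave small or uncertain differences. Nr1i3, which encodes CAR, averaged 16.59 ± 0.10 with PFOA and 16.64 ± 0.08 with water (difference -0.05 ± 0.18, 95% interval -0.42 to 0.31). Nr1i2, which encodes PXR, differed by 0.54 ± 0.29, with overlapping groups. Cyp2c29, another P450 known as a target of CAR, averaged 20.65 ± 0.25 with PFOA and 20.54 ± 0.12 with water. The lowest difference of the list was that of the oestrogen sulfotransferase Sult1e1, -1.01 ± 0.97.

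Classical PPARα target genes gave small or uncertain differences in the null livers. Ehhadh, a bifunctional enzyme of peroxisomal β-oxidation, had 16.36, 16.01, 16.28 and 16.36 on the PFOA arrays, against 16.06, 15.90, 16.07 and 16.59 on the water arrays. The groups overlapped, and the difference was 0.10 ± 0.52 (95% interval -0.96 to 1.16). With wild-type PFOA replicate 3 left out of the fit, the standard error of this difference was 0.24. The fatty acid transporter Cd36 averaged 12.87 ± 0.26 with PFOA and 12.87 ± 0.13 with water. The thioesterase Acot1 differed by 0.77 ± 0.51, the lipid droplet protein Plin2 by 0.31 ± 0.40, the hormone Fgf21 by 0.07 ± 0.77 and the pyruvate dehydrogenase kinase Pdk4 by -0.97 ± 0.91, none passing.

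The Cyp4a genes, whose enzymes oxidise the far end of fatty acids, were less uniform. Cyp4a31 had 11.02, 10.01, 10.87 and 10.05 on the PFOA arrays, against 7.27, 7.92, 7.05 and 8.80 on the water arrays. The groups did not overlap, the water values lay around the level of silent genes, and the difference of 2.72 ± 0.82 did not pass (adjusted p = 0.926). Cyp4a14 had 11.59, 11.43, 12.39 and 12.41 on the PFOA arrays, against 7.23, 12.53, 6.63 and 14.15 on the water arrays. The water arrays split widely, and the difference was 1.82 ± 1.65.

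By list, 2 of 28 peroxisomal genes were higher at an unadjusted p under 0.05 and 0 lower, with a median of -0.015, beside 1.92% higher and 2.04% lower among all genes. These were Acaa1b, a peroxisomal thiolase, with 19.70 to 20.03 on the PFOA arrays against 18.35 to 19.32 on the water arrays (difference 1.05 ± 0.27, adjusted p = 0.579), and the isomerase Ech1 (0.86 ± 0.31). Of 15 genes of mitochondrial β-oxidation and ketogenesis 1 was higher, the acyl-CoA dehydrogenase Acadl (0.89 ± 0.26), and the median was 0.246. Of 30 genes of ω-oxidation, uptake and handling of fatty acids 6 were higher and 1 lower, with a median of 0.145 (0.27, with 4 higher and 0 lower, without water array 1). Beside Cyp4a31 the higher ones included Creb3l3, a liver transcription factor of the fasting state (0.63 ± 0.19), and Angptl4, an inhibitor of lipoprotein lipase (1.96 ± 0.66), while the lipoprotein receptor Vldlr was lower (-0.77 ± 0.36). None of these genes passed the test.

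**Figure D3:**
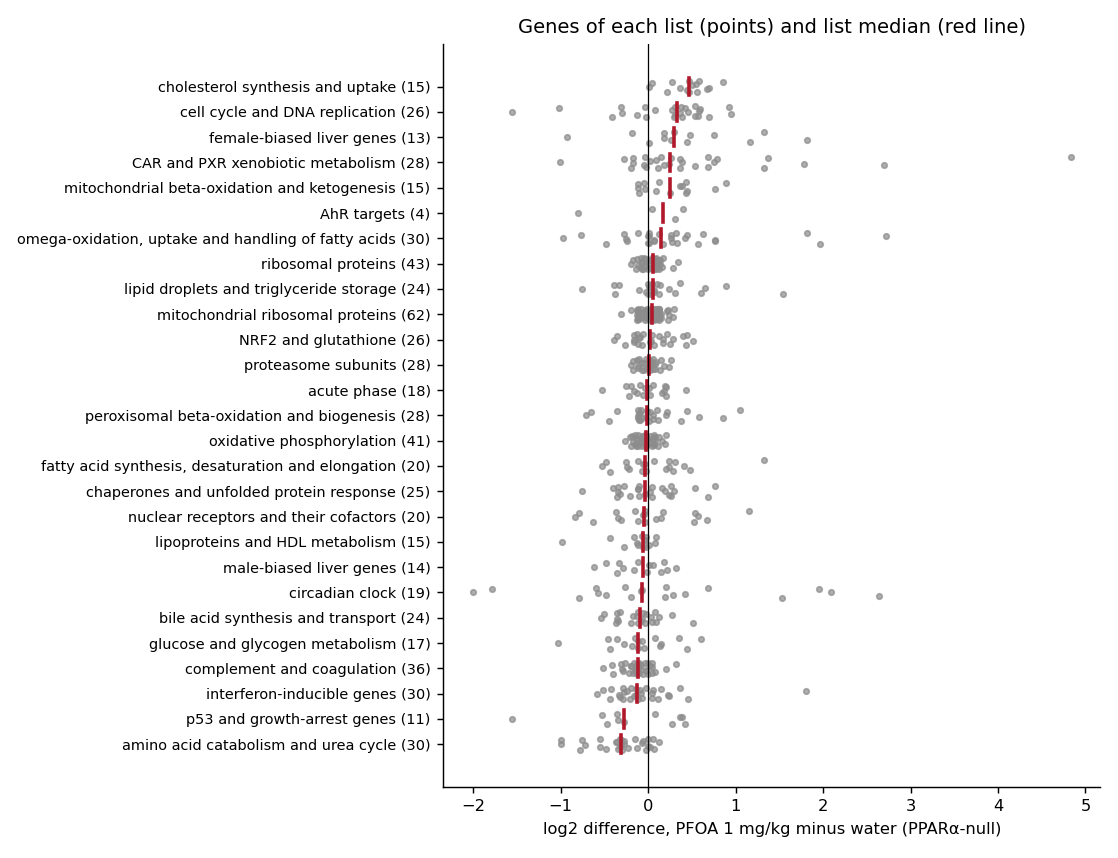
Each grey point is the log2 difference (PFOA 1 mg/kg minus water, PPARα-null, x axis) of 1 measured gene on each of 27 gene lists (y axis, with the number of measured genes), and red lines are list medians. The medians run from -0.305 for the list of amino acid catabolism and urea cycle to 0.47 for cholesterol synthesis and uptake, and the rightmost point of the CAR and PXR list is Cyp2c55 at 4.83.

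Most genes of the urea cycle and amino acid catabolism had negative differences, and none passed the test. Of 30 measured members, 26 had a negative difference, where 48.7% of all probes had a positive one. At an unadjusted p under 0.05, 0 were higher and 4 lower (1.92% and 2.04% of all genes). The count of lower genes was 1 without PFOA array 4, 2 without water array 3 and 5 without water array 2. The PFOA arrays lay below every water array for 7 of the 30, against 2.80% of all genes. The median was -0.305, and -0.23 and -0.20 within the smaller and larger array sets. The mean signal of the list was 17.58 to 17.71 on the PFOA arrays and 17.9 to 18 on the water arrays. The cysteine-forming enzyme Cth had 18.29, 17.64, 17.88 and 17.23 with PFOA, against 18.81, 18.36, 19.06 and 18.79 with water (-0.99 ± 0.38), and the histidine ammonia-lyase Hal averaged 16.08 ± 0.28 with PFOA and 16.80 ± 0.05 with water (-0.72 ± 0.29). Differences of the transaminases Got1 and Oat were -0.78 ± 0.36 and -0.75 ± 0.36.

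All 15 measured genes of cholesterol synthesis and uptake had positive differences, with a median of 0.47, but the arrays did not divide by treatment. For 0 of the 15 did the groups separate (2.50% of all genes lay above every water array), and 3 were higher at an unadjusted p under 0.05 (1.92% of all genes): the isomerase Idi1 (0.86 ± 0.32, and 0.44 ± 0.35 by a second probe), the sterol reductase Tm7sf2 (0.44 ± 0.17) and the desaturase Sc5d (0.58 ± 0.23). Sqle, squalene epoxidase, had 16.76, 17.18, 17.59 and 16.23 on the PFOA arrays, against 17.19, 15.30, 16.44 and 16.02 on the water arrays. In Idi1, Sqle, Hmgcs1 and Msmo1, drawn in the plot of clock and cholesterol genes, water array 2, the single water array of the larger set, was the lowest, and PFOA array 3, also of that set, was the highest or second highest of the 8. Within the smaller array set the median was -0.10, and within the larger one, with 1 water array, it was 1.5, while with array set as a block over all arrays it was 0.46 with 3 genes higher. Single arrays moved it: without water array 1 the median was 0.73 with 11 genes higher, without water array 2 it was 0.24 with 0 higher, and without PFOA array 3 it was 0.28 with 0 higher. Without PFOA array 4 it was 0.65 with 6 higher, and without water array 4 it was 0.41 with 2 higher. Tmem97, a membrane protein involved in cholesterol transport that is not on the list, had 16.41 to 16.60 with PFOA and 15.56 to 16.23 with water (0.58 ± 0.15, adjusted p = 0.651).

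Some clock genes varied widely between arrays. The clock output genes Dbp and Usp2 averaged 16.79 ± 0.85 and 12.91 ± 0.75 with PFOA, against 14.70 ± 1.58 and 10.27 ± 1.63 with water. The activators Arntl and Npas2 averaged 10.88 ± 1.04 and 8.16 ± 0.21 with PFOA, against 12.88 ± 0.75 and 9.95 ± 0.92 with water. The differences of these 4 genes were 2.09 ± 1.07 for Dbp, 2.64 ± 1.08 for Usp2, -2.00 ± 1.15 for Arntl and -1.78 ± 0.85 for Npas2. None of the 19 measured clock genes passed the test, 9 had a positive difference and the median was -0.0653. At an unadjusted p under 0.05, 3 were higher and 1 lower (1.92% and 2.04% of all genes), and without water array 3 there were 0 of either. With any other array of the 8 left out, 1 to 4 were higher and 0 to 1 lower. Water arrays 2 and 3 were low for Dbp (13.56 and 13.15) and Usp2 (9.19 and 8.58), and water arrays 1 and 4 were nearer to the PFOA arrays. The labels give no hour of dosing or tissue collection, so treatment and time of day cannot be told apart.

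**Figure D4:**
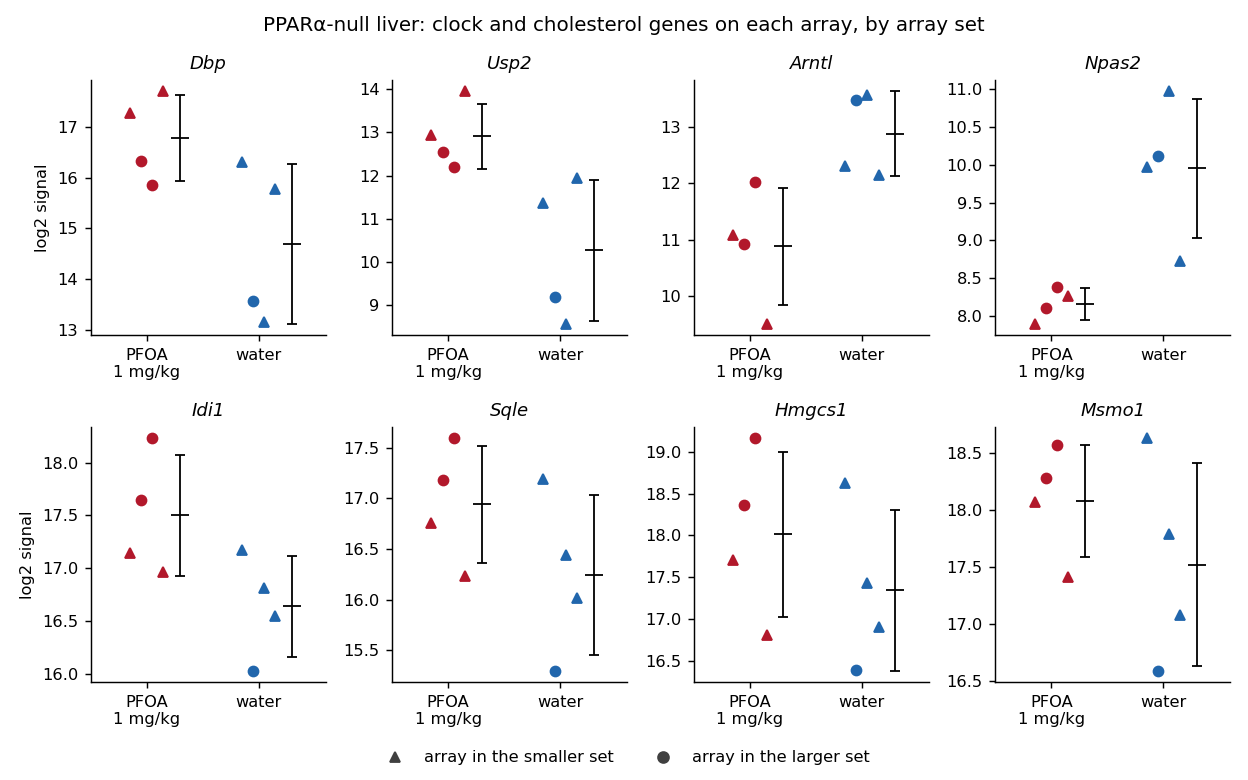
Log2 signals (y axis, scaled for each gene) of 4 clock genes (top) and 4 cholesterol synthesis genes (bottom) on the PFOA 1 mg/kg and water arrays of PPARα-null mice, replicates 1 to 4 from left to right, with the mean ± SD in black; triangles are arrays of the smaller set and circles arrays of the larger set. In the cholesterol genes the larger-set PFOA arrays are high and the larger-set water array is lowest, and the triangles of both groups overlap.

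Among genes with a group mean above the median of all values, the 10 with the smallest p that lay above every water array without passing were Cyp2b10, Ces2a, Acaa1b and Tmem97, given above, and 6 others. Podn, a proteoglycan of the extracellular matrix, had 12.92 to 13.56 with PFOA and 11.76 to 12.01 with water (1.39 ± 0.29, adjusted p = 0.182). Ifi27l2b, of a family induced by interferon, had 12.28 to 13.13 with PFOA and 10.71 to 11.26 with water (1.80 ± 0.40, adjusted p = 0.209), while the median of the 30 interferon-inducible genes was -0.128. Stbd1, which binds glycogen, differed by 1.18 ± 0.27, the small Maf factor Maff by 2.17 ± 0.50, the muscle LIM protein Csrp3 by 0.91 ± 0.23, and the cone transducin Gnat2 by 1.21 ± 0.32 (0.29 ± 0.60 by a second, dimmer probe). Below that brightness, and named after their values were seen, Chaf1b, a subunit of the chromatin assembly factor, averaged 9.31 with PFOA and 7.50 with water (1.81 ± 0.35, adjusted p = 0.0732), and the olfactory receptor gene Olfr8 averaged 9.58 with PFOA and 7.56 with water (2.02 ± 0.39, adjusted p = 0.0727; -0.79 by its other probe).

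The 10 genes of that brightness with the smallest p that lay below every water array had adjusted p of at least 0.593 and differences between -1.57 and -0.48. Nek9, a kinase of mitosis, had 12.74 to 12.99 with PFOA and 13.26 to 13.46 with water (-0.48 ± 0.12). The membrane carbonic anhydrase Car14 differed by -0.83 ± 0.24, the choline transporter-like protein Slc44a3 by -0.73 ± 0.20, the kinase Dapk1 by -0.93 ± 0.30 and the Rab regulator Usp6nl by -1.57 ± 0.49. Fgb, the fibrinogen β chain, differed by -0.51 ± 0.18 and the acyltransferase Agpat2 by -0.75 ± 0.28.

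The remaining lists are given by their genes past an unadjusted p of 0.05, which 1.92% of all genes passed as higher and 2.04% as lower. Female-biased liver genes had 2 higher of 13 (median of the list 0.301), namely the oxidase Hao2 (1.16) and Cyp2b13 (1.32), a P450 that is also on the CAR and PXR list, and male-biased genes had 0 of 14. The antioxidant NRF2 and glutathione list had 2 higher of 26, the epoxide hydrolase Ephx1 (0.43 ± 0.13) and the glutathione transferase Gsta3 (0.25). Lipid droplet genes had 2 higher and 2 lower of 24, with the acyltransferase Mogat2 highest (1.54 ± 0.53), and fatty acid synthesis had 2 higher of 20. Lipoprotein genes had 0 of 15 in either direction, but their mean signal was 18.16 to 18.22 on the PFOA arrays and 18.28 to 18.4 on the water arrays.

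By the same counts, set against the same shares of 1.92% higher and 2.04% lower, complement and coagulation genes had 1 lower of 36 (Fgb) and acute phase genes 1 lower of 18, the inter-alpha inhibitor chain Itih3 (-0.53). Bile acid genes had 0 of 24, and Cyp7a1, the rate-limiting enzyme of bile acid synthesis, differed by 0.08 ± 0.82. Glucose and glycogen genes had 1 lower of 17, and AhR targets 0 of 4. Nuclear receptors and cofactors had 3 higher and 1 lower of 20. Cell cycle genes had 1 lower of 26, with a median of 0.333 and a mean signal of 9.545 to 10.14 with PFOA and 9.613 to 9.826 with water, p53 genes 1 lower of 11, and chaperones 1 lower of 25. Proteasome subunits (28), oxidative phosphorylation (41) and mitochondrial ribosomal proteins (62) had 0 in either direction, and cytosolic ribosomal proteins had 1 higher of 43. No gene of these lists passed the test.

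Lists of cell type markers gave similar mean signals in both groups. The mean signal of 7 hepatocyte markers was 20.64 to 20.79 on the PFOA arrays and 20.63 to 20.77 on the water arrays. For 13 Kupffer cell markers it was 13.24 to 13.36 with PFOA and 13.35 to 13.47 with water, for 14 endothelial markers 12.71 to 12.89 with PFOA and 12.71 to 12.85 with water, and for 12 stellate markers 12.22 to 12.32 with PFOA and 12.2 to 12.61 with water. For 3 red blood cell markers it was 14.42 to 14.92 with PFOA and 14.38 to 14.56 with water, and for 3 adipocyte markers 10.08 to 10.45 with PFOA and 10.34 to 10.54 with water. Neutrophil, lymphocyte, cholangiocyte and pancreatic markers averaged under 10 on all 8 arrays. No marker passed the test, and in whole liver a change in the share of a cell type and a change in RNA per cell cannot be told apart.

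The 3 mg/kg dose, measured in other null mice, gives the next point above water and 1 mg/kg. The comparisons with water share the 4 water arrays, so only the values are set side by side, in the order water, 1 mg/kg and 3 mg/kg. Cyp2c55 averaged 10.92, 15.75 and 17.70, Cyp2b10 12.03, 14.73 and 16.63, Ces1g 14.86, 16.38 and 17.14, Ces2a 17.63, 18.42 and 19.30, and Cnmd 12.70, 14.58 and 15.14. Against water, 76 probes passed at 3 mg/kg (0.300% of those tested), 66 of them higher (0.261%). Among the genes named above that did not pass at 1 mg/kg, Cyp2b10 rose 24.2-fold (adjusted p = 1.96e-05) and Ces2a by 1.67 ± 0.19 (adjusted p = 3.24e-06) at 3 mg/kg. Podn, Ifi27l2b, Stbd1, Ephx1, Ugt2b34, Csrp3, Gnat2, Cyp2b13 and Chaf1b also passed there as higher, and Itih3 as lower (limma adjusted p from 0.000244 to 0.0362). Of the fatty acid genes named above, these rose: Acaa1b by 1.6 ± 0.27 (adjusted p = 0.00137), Creb3l3 by 1.06 ± 0.19 (adjusted p = 0.00371), Acadl by 1.32 ± 0.26 and Cyp4a31 by 4.22 ± 0.82 (adjusted p = 0.00944 each). Ehhadh and Cd36 did not pass; Ehhadh averaged 16.15, 16.25 and 16.61 and Cd36 12.87, 12.87 and 12.96.

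The difference between the doses was tested directly. Of all probes, 2 passed (0.00791%), both higher at 3 mg/kg, and 1155 had an unadjusted p under 0.05 (4.57%). S100a8, a calcium-binding protein of neutrophils, had 14.85 to 16.54 at 3 mg/kg, against 7.70 to 9.96 at 1 mg/kg and 7.34 to 8.73 with water, a difference between doses of 6.45 ± 0.70 (adjusted p = 4.96e-06). Its partner gene S100a9 averaged 10.43 ± 0.06 at 3 mg/kg and differed from water there by -0.28 ± 0.34. Col1a1, a fibrillar collagen, had 13.74 to 15.29 at 3 mg/kg, against 11.77 to 12.84 at 1 mg/kg, a difference of 2.23 ± 0.38 (adjusted p = 0.0251). At 1 mg/kg Col1a1 already lay above every water array, by 0.87 ± 0.38 on average, without passing. At 3 mg/kg it was 3.10 above water (limma adjusted p = 1.52e-05). For Cyp2c55 the step between doses was 1.96 ± 0.45 and for Cyp2b10 1.90 ± 0.58, neither passing (adjusted p = 0.329 and 0.69).

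**Figure D5:**
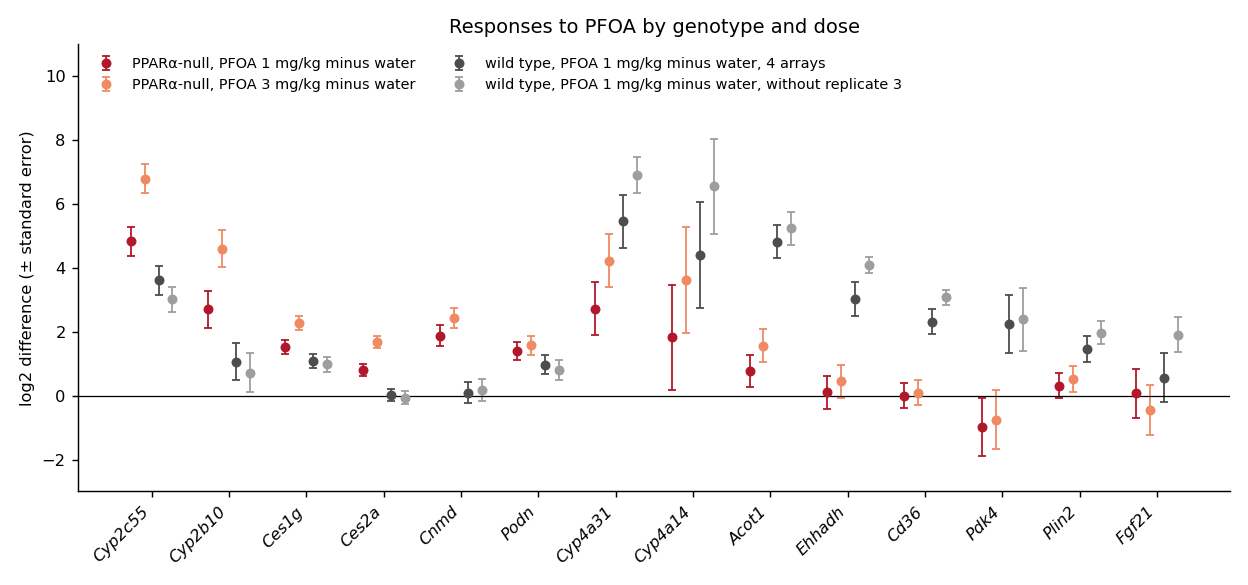
Log2 differences ± standard error (y axis) of 14 genes (x axis) for PPARα-null mice at 1 mg/kg and 3 mg/kg and for wild-type mice at 1 mg/kg, the last with 4 arrays and without replicate 3, each minus water of the same genotype. Cyp2c55 and Cyp2b10 have their largest values in null mice at 3 mg/kg, while Acot1, Ehhadh and Cd36 have theirs in wild-type mice.

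The same dose in wild-type mice gives values with PPARα present. With 4 arrays, 69 probes passed (0.273%), 61 higher (0.241%) and 8 lower (0.0316%), and without replicate 3 there were 249. The null mice have their own water controls, so these probes can be read in them. Of the 61, 49 had a positive difference in null livers, against 48.7% of all probes. Of the same 61, 18 lay above every null water array, against 2.24% of all probes. Their median null difference was 0.3, from -0.73 to 4.83. Of the 209 that were higher without replicate 3, 145 had a positive null difference and 35 lay above every null water array, with a median of 0.15. The shares of all probes are again 48.7% and 2.24%. Of the 8 lower probes with 4 arrays, 6 had a negative null difference (median -0.1). Without replicate 3 it was 35 of 40 lower probes (median -0.26). Of all 25295 tested probes, 12974 had a negative null difference. Cyp2c55 rose in wild type by 3.61 ± 0.45 (adjusted p = 4.75e-05; 3.01 ± 0.40 without replicate 3), and Ces1g by 1.08 ± 0.22 (adjusted p = 0.0213; 0.98 ± 0.24 without it). Cnmd differed in wild type by 0.09 ± 0.32 (0.18 ± 0.34 without replicate 3); its level there was 14.08 to 14.78 with PFOA and 14.16 to 14.34 with water, close to the null livers given PFOA.

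The test of the genotype difference in the response depended on 1 array. Wild-type replicate 3 was set apart because Cox6b2, Ehhadh and Cd36 were at null levels on it. Leaving it out was thus chosen on responses of the kind tested here. The values without it are therefore not independent of that choice. With all arrays 0 probes passed in limma (1274, or 5.04%, at an unadjusted p under 0.05). Without wild-type replicate 3, 41 passed, 39 of them with a lower response in null than in wild type. The 2 with a higher response in null were Ifitm3, an interferon-induced membrane protein (1.32, adjusted p = 0.00709, on a null difference of -0.08 and a wild-type difference of -1.39), and a probe annotated to several genes, which is not named (4.07 ± 0.84, adjusted p = 0.0273, on a null difference of 3.06 and a wild-type difference of -1.02). Ehhadh then differed between genotypes by -3.98 ± 0.36 (adjusted p = 6.26e-08; -2.92 ± 0.73 and adjusted p = 0.509 with all arrays), on a null difference of 0.10 and a wild-type difference of 4.08. Without that array Cd36 differed by -3.06 ± 0.30 (adjusted p = 3.25e-07), Acot1 by -4.46 ± 0.71 (adjusted p = 0.00169) and Cyp4a31 by -4.19 ± 0.77 (adjusted p = 0.0081). With all arrays the differences were -2.31 for Cd36, -4.05 for Acot1 and -2.73 for Cyp4a31, none passing (adjusted p = 0.384, 0.0888 and 0.918). For 4 genes that were higher in null livers the genotype difference did not pass in either fit: without that array it was 1.81 ± 0.55 for Cyp2c55 (adjusted p = 0.386), 1.99 ± 0.84 for Cyp2b10 (0.793), 0.86 ± 0.28 for Ces2a (0.488) and 1.69 ± 0.47 for Cnmd (0.258). With all arrays it was 1.22 for Cyp2c55, 1.63 for Cyp2b10, 0.77 for Ces2a (adjusted p = 0.918 each) and 1.78 for Cnmd (adjusted p = 0.509).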

How the data were processed

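Total RNA of mouse liver was labelled and hybridised to Mouse Genome Survey arrays of Applied Biosystems, per the labels. The deposited values are log2 signals with equal quantiles on every array, as read from the table; the base of the logarithm is taken as 2 from their range (4.85 to 21.5), and no label names the software or the background correction. The values were fitted without renormalising. Probes missing on any array (7717) were dropped. A probe's gene came from the platform annotation: 14411 probes have 1 symbol, 247 several and 18354 none; 14402 matched RefSeq, and 0 symbols were updated.

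limma 3.58.1 in R 4.3.3 was fitted to all 39 arrays with 1 mean per group (29 residual and 2.51 prior degrees of freedom); tests are two-sided. Where several probes name a gene, the brightest stands for it. The number of arrays limits the precision. Replicate numbers were not taken as pairing the samples, since not every same-number correlation of deviations was over 0.1 (0.113, 0.182, -0.106 and 0.172) and no label ties a number to a shared animal, litter or day. The script was tested on simulated data.

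The members and the 27 gene lists and 10 marker lists were chosen with earlier results of these data known. Named genes are up to 15 rises and 15 falls that passed; where under 10 passed in a direction, the 10 with the smallest p whose groups do not overlap and whose higher mean is above the median of all probes; up to 5 per direction for the dose and genotype differences; up to 4 per list; and a fixed set of PPARα and CAR genes. Alternatives were other sets of arrays, the replicate and array-set blocks, the silent-gene covariate, left-out arrays, filters, normalisation and variance models.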

Additional observations from a re-analysis of the deposited data

Results flagged for a closer look

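In 77 named genes the 4 arrays of each group were checked for 1 array standing apart by Dixon's test, which chance alone flags in about 1 in 20 groups; 8 of 154 groups were marked, and no cause was tested. Cyp2c55 was 10.54 on water array 2, against 11 to 11.08 on the other water arrays, and its rise is 4.70 ± 0.49 without that array. Nr1i3 was 16.44 on PFOA array 4, against 16.63 to 16.64 on the others. Pdgfrb, a stellate cell receptor, was 9.80 on PFOA array 4 against 9.29 to 9.37, and 9.56 on water array 3 against 10.68 to 10.91. The other 4 were on water arrays: Acadl was 16.04 on array 2 against 15.49 to 15.57, Itih3 was 19.80 on array 1 against 19.17 to 19.27, Atf4 was 15.29 on array 4 against 15.99 to 16.08, and Med1 was 9.71 on array 4 against 7.38 to 7.69.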

How the results depend on the processing

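The count of 3 probes became 4 with a constant added on the linear scale, the added probe being unnamed. It held at 3 with array set as a block, with higher filters, with the missing-value probes added, with requantiled values and with an intensity trend. It was 2 to 3 when any of the 8 arrays was left out. With the 8 arrays alone it was also 3, but only Cyp2c55 was shared, with Cyp2b10 and a probe of several genes in place of Ces1g and Cnmd. The count was 0 with a replicate block on those 8 arrays (1743 at an unadjusted p under 0.05; Cyp2c55 adjusted p = 0.0653) and 3 with a replicate block on all arrays; replicates 1, 2 and 4 correlated best with their own number, which is a hint from the data and not the design. It was 1 within the smaller array set, 0 within the larger one (1092 unadjusted), 7 with the silent-gene covariate and 18 with array weights, where 16 were rises, adding Podn, Ifi27l2b, Stbd1, Gnat2, Acadl, Ces2a, Cyp2b10, Chaf1b, Olfr8, Peg10, a probe of several genes and 2 unnamed probes, and 2 unnamed probes fell (-1.59 and -1.94); the cause was not tested. For the dose step (2 probes) counts were 0 with the arrays of those groups alone, with or without the replicate block, 1 within the smaller set, 0 within the larger one, 1 among bright probes, 4 with array weights and 1 to 2 with an array left out. For the genotype difference (0 probes) they were 1 within the smaller set, 1 among bright probes, 1 with an intensity trend, 30 with array weights and 0 to 41 with an array left out. For 3 mg/kg in null mice (76) they were 15 with those groups alone, 3 with the replicate block there, 22 and 4 within the smaller and larger sets, 118 among bright probes, 199 with array weights and 43 to 84 with an array left out, 43 without water array 1 and 45 without water array 3. For 1 mg/kg in wild type (69) they were 1 with those groups alone, 0 with the replicate block there, 29 and 1 within the sets, 109 among bright probes, 450 with array weights and 61 to 249 with an array left out. No value changed sign while passing. Of the named genes' values under alternatives, 1658 kept their side of the threshold, 16 no longer passed and 9 newly passed. A change of sign was checked only for genes with an unadjusted p under 0.05 in the main fit or passing in the alternative. Background correction could not be varied from these values, and dim probes near the silent-gene level understate folds.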
